A study of Anopheles arabiensis with 20 samples.

Results

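Gene expression was compared between MOZ and SEK, a pair of laboratory strains of the African malaria mosquito *Anopheles arabiensis*. MOZ comes from Mozambique, and SEK comes from Sekoru in Ethiopia. Each strain gave 4 libraries, so that 8 of the 20 libraries of the series belong to the comparison, chosen by strain name. Each library holds polyA-selected RNA from a pool of 10 whole females, aged 3 to 5 days, that had taken no blood and had been given sucrose. The labels call both strains susceptible to pesticides and name no insecticide treatment of the sampled mosquitoes. The other 12 libraries come from 3 populations raised from larvae taken at Ethiopian field sites, ASN (Asendabo), CHW (Chewaka) and TOL (Tolay), which the labels call resistant to deltamethrin and DDT. They enter the model that gives the calls, through the filter on low counts, the scaling and the estimate of spread, and are set beside the strains for some genes. All 8 strain libraries were in the same sequencing run, per the titles. As far as the labels tell, each strain is 1 colony, so country of origin and colony history cannot be told apart.

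Susceptible colonies serve as the baseline against which resistant mosquitoes are measured in studies of insecticide resistance. A difference between a pair of such colonies is therefore a difference between baselines. The mosquito mitochondrial genome, inherited through the mother, encodes subunits of respiratory complexes I, III and IV and of ATP synthase (complex V), beside the ribosomal and transfer RNAs of the organelle. It is transcribed into long precursors that are cut into single transcripts, and animal mitochondrial mRNAs carry short poly(A) tails. None of the 13830 nuclear gene IDs, which start with AARA, matched a gene name in the RefSeq table at hand (assembly AaraD3). Nuclear genes are therefore given by ID with no role, and markers of sex or tissue were not checked. All 37 mitochondrial IDs matched, of which 13 are protein-coding genes, 2 ribosomal RNAs and 22 transfer RNAs.

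Total counts per library ran from 12205530 (replicate 2) to 20558973 (replicate 3) in MOZ and from 14942998 (replicate 3) to 18427721 (replicate 1) in SEK. Pairs of replicates of the same strain differed beyond sampling noise, with a chi-square per degree of freedom of at least 25.9 over 12 pairs. Across genes, which are no independent replicates, their log2 CPM correlated at a Pearson r of 0.969 to 0.987. Nothing but the word "biological" in the labels says how separate the pools were, so p-values measure the spread between these pools.

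The strains were the main division among the 8 libraries. In a principal component analysis of log2 CPM the leading axis carried 62.0% of the variance. On it, MOZ libraries lay between -43.0 and -39.5 and SEK replicates 1, 3 and 4 between 45.7 and 47.8. SEK replicate 2 lay at 25.6, on the SEK side but less far from MOZ than the other SEK libraries were. It also lay apart on the second component, at 32.6 against -9.91 to -6.82 for the other SEK libraries. Results that rest on SEK replicate 2 are given with and without it.

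**Figure D1:**
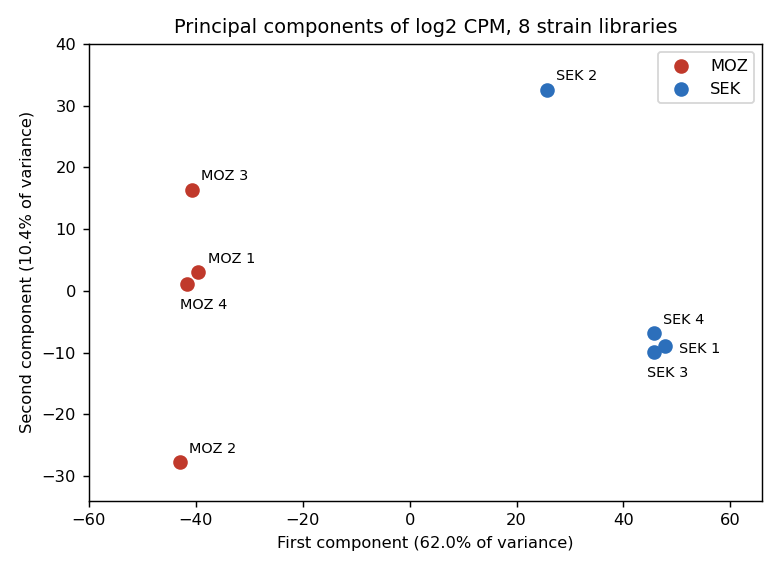
Principal components of log2 CPM over the 8 strain libraries, first component on the x axis (62.0% of variance) and second on the y axis (10.4%), 1 point per library with MOZ in red and SEK in blue. MOZ and SEK separate along the x axis, and SEK replicate 2, at 25.6, stands away from the other SEK libraries, at 45.7 to 47.8.

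The question of this comparison is how far a pair of susceptible strains differ in expression. Of 11018 genes tested, edgeR's quasi-likelihood test called 1400, or 12.7%, at a Benjamini-Hochberg adjusted p under 0.05 and a change of at least 2-fold. The calls were nearly even in direction, with 707 genes (6.42%) higher in MOZ and 693 (6.29%) lower in MOZ. The median log2 fold change over all genes tested was 0.02, with quartiles at -0.34 and 0.38. Without the 2-fold requirement 4567 genes (41.5%) passed.

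Most called changes were modest. Of the genes called higher in MOZ, 588 changed by less than 4-fold, a log2 fold change of 1 to 2. Another 79 lay between 2 and 3 on the log2 scale, 31 between 3 and 5, 6 between 5 and 8, and 3 above 8. Of the genes called lower in MOZ, 466 lay between -2 and -1, 94 between -3 and -2, 61 between -5 and -3, 50 between -8 and -5, and 22 below -8. The median log2 fold change was 1.36 among genes called higher and -1.54 among genes called lower. Decreases past -5 numbered 72, of which 46 belonged to a set of 81 genes nearly absent from SEK replicate 2, described at the end.

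The share of genes called is given by expression level. Called were 27.5% of 926 genes with a mean under 1 CPM over the 8 libraries, 19.3% of 3413 genes from 1 to 10 CPM, 7.09% of 5499 genes from 10 to 100 CPM and 8.14% of 1180 genes at 100 CPM or more. Under 1 CPM, 148 genes were higher and 107 lower in MOZ, and from 1 to 10 CPM 379 were higher and 280 lower. From 10 to 100 CPM 148 were higher and 242 lower, and at 100 CPM or more 32 were higher and 64 lower. The filter on low counts can pass a weak gene because it is high in 1 group, so the share called under 1 CPM is a description.

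**Figure D2:**
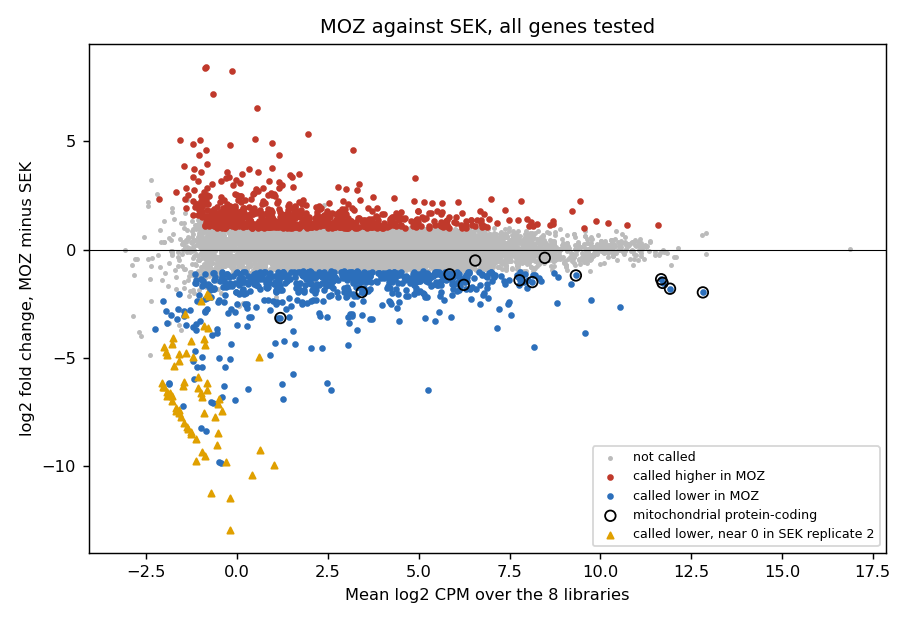
Log2 fold change of MOZ minus SEK (y axis) against mean log2 CPM over the 8 libraries (x axis) for the 11018 genes tested, 1 point per gene. The 707 genes called higher in MOZ are red and the 693 called lower are blue or, for 64 genes near 0 in SEK replicate 2, yellow triangles, which make up most of the points below -5. Black circles mark the 13 mitochondrial protein-coding genes, all below 0.

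Of the 1400 called genes, 1218 had no overlap between the strains, 637 higher and 581 lower in MOZ. Among all genes tested, all 4 MOZ libraries were above all 4 SEK libraries for 19.5% and below them for 17% (2150 and 1873 genes). The calls were also read in a library left out of the test that made them. Leaving out 1 library at a time, 83.8% to 95.5% of the genes called by the others were nearer to its own strain's mean than to the other's in the library left out. The lowest share belonged to SEK replicate 2, with 1207 of 1441 genes, and the highest to SEK replicate 4, with 1195 of 1251. For MOZ replicate 2 the share was 84.6%, and for the other 5 libraries it was 87.5% to 94.1%. The same share over all genes tested is not given, so how far these shares are particular to called genes cannot be told.

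The genes with the largest increases in MOZ were taken among called genes without overlap and with a mean of at least 5 CPM in the higher strain. AARA015557 led them, with 6.45, 6.76, 5.79 and 6.21 CPM in MOZ replicates 1 to 4, against 0.0511 CPM in SEK replicate 1 and 0 in the other 3. That is 437 counts in MOZ and 1 count in SEK, a pooled ratio of 459 with a 95% exact interval for counting error of 82.0 to 18173. AARA007380 had 12.4, 13.9, 6.88 and 10.4 CPM in MOZ, against 0.306, 0.0663, 0.0521 and 0 CPM in SEK. Both genes were nearly silent in every SEK library. In MOZ AARA015557 was steady, while AARA007380 ran from 6.88 to 13.9 CPM.

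AARA000317 had 25.9, 25.4, 15.95 and 30.8 CPM in MOZ, against 1.17, 0.332, 0.573 and 0.254 CPM in SEK (5.35 on the log2 scale, SE 0.45, edgeR adjusted p 9.06e-08). AARA002168 had 36.7, 56.2, 47.0 and 38.4 CPM in MOZ, against 2.35, 1.46, 1.93 and 1.52 CPM in SEK (4.60 on the log2 scale, SE 0.38, edgeR adjusted p 7.34e-08). In both genes the lowest MOZ library was more than 10-fold above the highest SEK library. The other 6 of these 10 genes were AARA007378, AARA015021, AARA000586, AARA007767, AARA000472 and AARA001020, with log2 fold changes from 5.13 down to 3.44. In 9 of the 10 genes the means of all 3 field populations also lay below the lowest MOZ library. The exception was AARA000472, which averaged 9.62 CPM in ASN and 8.67 in TOL, within the MOZ range of 8.46 to 14.8.

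The 10 genes with the largest decreases by the same rule fell into 2 kinds. In 5 of them, AARA000246, AARA000240, AARA016511, AARA010047 and AARA008460, SEK replicate 2 was under 1 CPM. AARA000246 had no count in MOZ, against 204, 0.0663, 22.6 and 1.98 CPM in SEK replicates 1 to 4. Relative to a floor of 3 counts over the MOZ libraries it was at least 1417-fold lower in MOZ, and at least 205-fold without SEK replicate 1, which held 3993 of its 4467 counts. SEK replicate 1 held the highest level in each of the 5. When the 8 strain libraries were fitted alone, the filter on low counts removed all 5 and they were not tested. With limma and voom 4 of the 5 were not called, with adjusted p from 0.0838 to 0.21, and AARA010047 remained called. In AARA000246 and AARA000240 the absence of overlap rested on 1 and 2 counts in SEK replicate 2. In AARA008460 it rested on 3 counts in SEK replicate 2, against 2 counts each in MOZ replicates 1 and 4.

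The other 5 were above 1 CPM in every SEK library. AARA000505 had 0.237, 0, 0.307 and 0.125 CPM in MOZ, against 17.9, 27.2, 20.3 and 24.3 CPM in SEK (-6.87 on the log2 scale, SE 0.46, edgeR adjusted p 1.19e-08). AARA010216 had 0.414, 0.418, 0.614 and 0.941 CPM in MOZ, against 59.2, 43.6, 42.3 and 72.7 CPM in SEK (-6.49 on the log2 scale, SE 0.39, edgeR adjusted p 7.26e-09). Both were close to silent in MOZ, and their field means, 6.61 to 9.57 CPM and 15.1 to 25.5 CPM, lay between the strains. AARA000527 had 0, 0.209, 0 and 0 CPM in MOZ, against 6.49, 8.16, 4.22 and 5.95 CPM in SEK, with field means of 0.196 CPM (ASN), 0.641 (CHW) and 0.482 (TOL). SEK thus stood above MOZ and above the 3 field means in this gene.

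AARA011273 was the most abundant of these genes. It had 3.14, 3.76, 5.00 and 4.71 CPM in MOZ, against 336, 640, 195 and 331 CPM in SEK (-6.49 on the log2 scale, SE 0.74, edgeR adjusted p 3.08e-06). The CHW mean, 394 CPM, lay in the SEK range, but CHW libraries ran from 56.5 to 660 CPM. ASN and TOL averaged 27.8 and 81.5 CPM. The remaining gene, AARA001805, had 0.237, 0.0697, 0 and 0.0627 CPM in MOZ, against 6.89, 12.9, 6.67 and 6.10 CPM in SEK.

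Among abundant genes, the 5 with the highest mean in MOZ among genes called higher were AARA016266, AARA008715, AARA010362, AARA007073 and AARA008584, with log2 fold changes from 1.13 to 2.26. AARA008715 fell under 2-fold without MOZ replicate 3 (0.93) or SEK replicate 1 (0.98). AARA008584 had 1491, 1621, 1290 and 1708 CPM in MOZ, against 298, 393, 309 and 274 CPM in SEK (2.26 on the log2 scale, SE 0.38, edgeR adjusted p 0.000115). AARA016266 had 2798, 9289, 3928 and 4253 CPM in MOZ, against 2062, 2310, 1039 and 3650 CPM in SEK (1.16 on the log2 scale, SE 0.40, edgeR adjusted p 0.0259). Its strains overlapped, and it was no longer called without MOZ replicate 2, at a log2 fold change of 0.69 and an adjusted p of 0.154, or without SEK replicate 1 or 3, with an adjusted p of 0.0576 and 0.0821. Of the 5 most abundant genes called lower in MOZ, 4 were the mitochondrial genes COX1, CYTB, COX2 and COX3. The fifth, AARA001672, had 1109, 465, 694 and 321 CPM in MOZ, against 3450, 6159, 2624 and 3743 CPM in SEK (-2.63 on the log2 scale, SE 0.48, edgeR adjusted p 0.000282).

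The field libraries are not part of the contrast between the strains, though they shared in the filter, scaling and spread behind the calls. For 1002 of the 1400 called genes (71.6%) the mean of the 3 field populations in log2 CPM was nearer SEK than MOZ. The share was 77.2% for the 707 genes called higher in MOZ and 65.8% for the 693 called lower. It was 70.3% with ASN alone, 70.9% with CHW and 66.8% with TOL, and 66.2% with CHW replicates 3 and 4, the field libraries that shared the strains' run. For genes called lower in MOZ the side depended on the scaling. With library totals in place of TMM (trimmed mean of M values), 322 of the 693 (46.5%) were nearer SEK, and 85.7% of those called higher. Of the 1243 genes called when the 8 strain libraries were fitted alone, an alternative chosen after seeing the data, 943 (75.9%) were nearer SEK. The share nearer SEK among all genes tested is not given, so whether called genes differ from the rest in this cannot be told.

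Genes on in 1 strain and off in the other were few. A gene was taken as on with at least 10 counts in each of the 4 libraries and as off with at most 2 counts in each. By this rule 7 genes were on in MOZ and off in SEK, and 10 were on in SEK and off in MOZ, beside 10121 genes on in MOZ and 10061 on in SEK. All were weakly expressed, with means of at most 6.30 CPM in the strain that was on. The filter removed AARA015839, and the edgeR test called the other 6 and all 10, where 12.7% of all genes tested were called. The genes were chosen by these values, so the counts are a description.

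Of the genes on in MOZ, 3 were also on in at least 10 of the 12 field libraries. AARA000528 had 48, 52, 58 and 50 counts in MOZ, against 0, 0, 0 and 1 in SEK, and 18 to 166 in field libraries. AARA014088 had 56, 31, 60 and 29 counts in MOZ and 0 in every SEK library, at least 61.6-fold higher against a floor of 3 counts over the SEK libraries. AARA014087, likewise at 0 in every SEK library, had 54, 25, 43 and 53 counts in MOZ. For these 3 genes the field libraries were on the MOZ side.

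The other 4, AARA015557, AARA009489, AARA002505 and AARA015839, were on in MOZ while most field libraries were low. AARA009489 had 30, 22, 15 and 20 counts in MOZ, 1 count in each SEK library and 0 to 4 counts in field libraries. AARA015557 had 109, 97, 132 and 99 counts in MOZ and 1 to 20 in field libraries, with at least 10 in 3 of the 12, all from CHW.

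Of the 10 genes on in SEK, 4 were on in at least 10 field libraries. They were AARA016509, AARA009441, AARA005874 and AARA015692. AARA016509 had 2, 0, 0 and 0 counts in MOZ, against 81, 82, 73 and 50 in SEK and 38 to 222 in field libraries. AARA009441 had 1 count over the 4 MOZ libraries, against 72, 56, 41 and 36 counts in SEK. AARA014479 and AARA012028 had no count in any MOZ library and were at least 57.8-fold and 52.4-fold lower in MOZ against the same floor. AARA014479 had 61, 34, 44 and 43 counts in SEK and reached 10 counts in 1 of the 12 field libraries. AARA005815 had 0, 1, 2 and 2 counts in MOZ, against 64, 54, 68 and 60 in SEK. In the field it was at 0 in every CHW library but reached 12 in ASN.

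**Figure D3:**
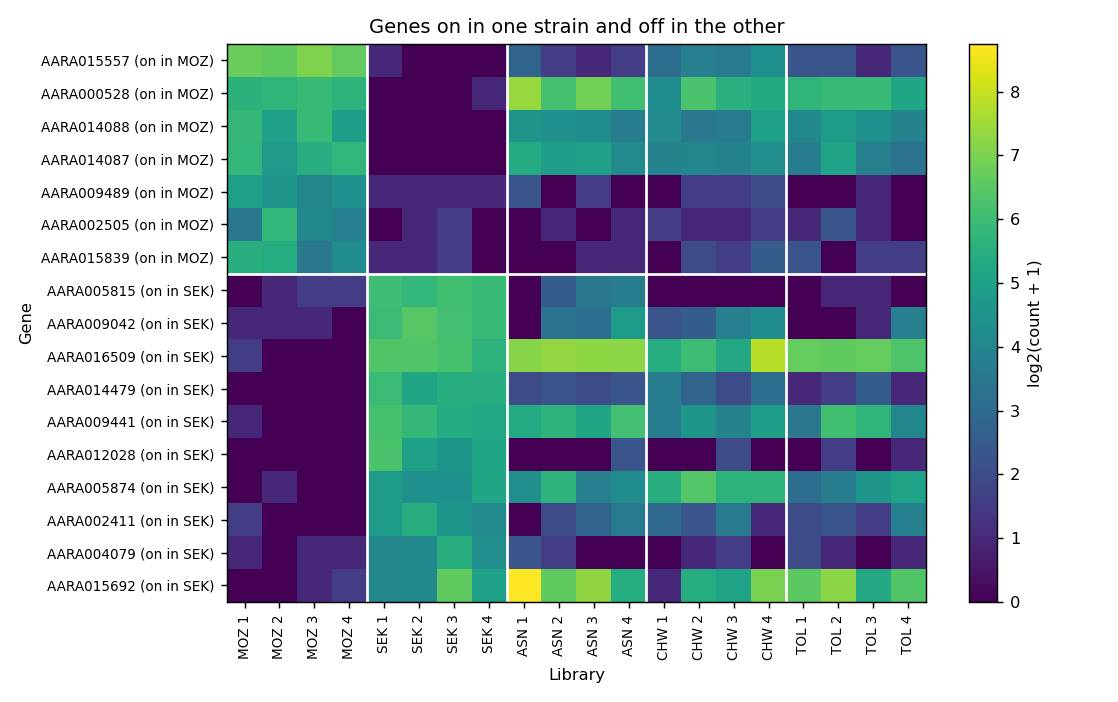
Counts of the 17 genes that were on in 1 strain and off in the other, as log2(count + 1) by colour, with genes in rows and libraries in columns (MOZ, SEK, then the field populations). The upper 7 rows are on in MOZ and the lower 10 on in SEK. AARA000528, AARA014087, AARA014088, AARA016509, AARA009441, AARA005874 and AARA015692 are on in most field libraries as well.

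The number of genes on in SEK and off in MOZ rested on SEK replicate 2. Without that library it was 72 in place of 10, and 55 of the 72 were at 2 counts or fewer in SEK replicate 2. The number on in MOZ and off in SEK became 8. As the rule asks every library to pass, leaving out a library can only keep or raise these numbers.

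Mitochondrial mRNAs were lower in MOZ. The 13 protein-coding genes took 2.26%, 0.573%, 1.71% and 1.05% of the counts in MOZ replicates 1 to 4, against 4.69%, 5.49%, 3.01% and 3.72% in SEK replicates 1 to 4. The strains did not overlap, and the means were 1.40% ± 0.741 in MOZ and 4.23% ± 1.08 in SEK (SD, n = 4 each). The exact permutation p, two-sided, was 0.0286, the smallest that 4 against 4 libraries can give, and 0.0762 after adjustment over 8 shares. Without MOZ replicate 2 or 4 it was 0.0571 before adjustment. The share of all mitochondrial counts differed less, 16.1% ± 2.16 in MOZ and 17.6% ± 4.92 in SEK (exact p 0.571, adjusted 0.571). Without SEK replicate 2 its difference turned round, to 0.383 percentage points higher in MOZ, against -1.55 with all libraries. Most of it was ribosomal RNA, at 14.7% ± 2.79 in MOZ and 13.4% ± 3.83 in SEK (exact p 0.571, adjusted 0.571). In bulk RNA, fewer mitochondria-rich cells and less transcript per cell cannot be told apart.

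By gene, 10 of the 13 were called lower in MOZ and 0 higher, where 6.29% of all genes tested were called lower. The median log2 fold change of the 13 was -1.49, against 0.02 over all genes tested, and all 13 values were below 0 under every scaling tried. In 10 of the 13 all MOZ libraries were below all SEK libraries, where 17% of all genes tested were. Within SEK the genes varied together, and within MOZ less so. MOZ replicate 4, for one, was the highest MOZ library for ND3 (94.3 CPM) and the lowest for ND4 (116 CPM). SEK replicate 2 was the highest SEK library in 12 of the 13 genes and SEK replicate 3 the lowest in all 13, and MOZ replicate 2 was the lowest MOZ library in 8.

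Complex IV is cytochrome c oxidase, which passes electrons to oxygen, and its catalytic core is encoded by COX1, COX2 and COX3. COX1 had 6796, 1430, 5356 and 2733 CPM in MOZ, against 17911, 23152, 10114 and 12777 CPM in SEK. The lowest SEK library was above the highest MOZ library (-1.97 on the log2 scale, SE 0.43, edgeR adjusted p 0.0012). COX2 was also without overlap (-1.53 on the log2 scale, SE 0.38, edgeR adjusted p 0.00357). COX3 was called (-1.36 on the log2 scale, SE 0.43, edgeR adjusted p 0.0169), but its highest MOZ library, at 3452 CPM, was above its lowest SEK library, at 3265 CPM. CYTB, the mitochondrial subunit of complex III, had 3425, 912, 3075 and 1651 CPM in MOZ, against 8988, 11153, 4823 and 6608 CPM in SEK (-1.80 on the log2 scale, SE 0.40, edgeR adjusted p 0.00159).

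Complex V makes ATP, and ATP6 and ATP8 encode parts of its membrane portion. ATP6 had 575, 251, 621 and 373 CPM in MOZ, against 1136, 1652, 623 and 740 CPM in SEK (-1.19 on the log2 scale, SE 0.45, edgeR adjusted p 0.0401). Its strains were separated by 621 CPM in MOZ replicate 3 and 623 in SEK replicate 3. ATP6 was not called without MOZ replicate 2 (adjusted p 0.107), MOZ replicate 4 (0.0911), SEK replicate 1 (0.0716) or SEK replicate 2 (0.144). In the 10 libraries of the second run neither ATP6 (0.0567) nor COX3 (0.0638) was called. ATP8 differed most of the 13, with 0.887, 0.627, 1.01 and 0.502 CPM in MOZ, against 6.64, 13.1, 2.60 and 5.69 CPM in SEK (-3.15 on the log2 scale, SE 0.51, edgeR adjusted p 9.32e-05). ATP8 overlaps ATP6 in the RefSeq annotation, and how reads shared by overlapping genes were counted is not given, so the ATP8 level is uncertain. The same holds for ATP6 and COX3, for ND4L and ND4, and for ND6 and CYTB, which overlap each other.

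Complex I takes electrons from NADH, and its 7 mitochondrial subunits are the ND genes. Called lower were ND4L (log2 fold change -1.96), ND4 (-1.49), ND5 (-1.41) and ND6 (-1.14). ND4 averaged 174 ± 60.2 CPM in MOZ and 491 ± 162 CPM in SEK (SD, n = 4 each), without overlap. Not called were ND2, ND3 and ND1. ND2 had 42.0, 34.5, 71.9 and 34.4 CPM in MOZ, against 195, 192, 84.3 and 93.1 CPM in SEK, without overlap, and an adjusted p of 0.0675 in edgeR. In a fit of the 8 strain libraries alone its adjusted p was 0.00307. ND1 averaged 320 ± 53.7 CPM in MOZ and 415 ± 132 CPM in SEK, and ND3 82.4 ± 15.9 CPM in MOZ and 117 ± 47.1 CPM in SEK (SD, n = 4 each).

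The makeup of the mitochondrial mRNA pool was compared by complex. Complex I genes took 7.87% ± 3.28 of the protein-coding mitochondrial counts in MOZ and 4.32% ± 0.297 in SEK (SD, n = 4 each), and complex V genes 4.08% ± 0.842 in MOZ and 2.66% ± 0.227 in SEK. Both shares were without overlap, with an exact permutation p of 0.0286 (adjusted 0.0762), and without any 1 of the SEK libraries p was 0.0857 for complex I and 0.0571 for complex V. Without MOZ replicate 2 the difference in complex I was 1.98 percentage points, against 3.55 with all libraries. Complex IV genes took 69.3% ± 4.09 in MOZ and 72.4% ± 0.602 in SEK (exact p 0.114, adjusted 0.152), and CYTB 18.7% ± 0.962 in MOZ and 20.6% ± 0.674 in SEK (exact p 0.0571, adjusted 0.114). For complex IV the difference was -1.20 points without MOZ replicate 2, against -3.12 with all libraries. No share passed 0.05 after adjustment. Complex I ran to 12.6% in MOZ replicate 2, the library with the least mitochondrial mRNA.

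The ribosomal RNAs were not called. ASK67_gr02, the more abundant of the 2, had 104895, 157657, 112167 and 131110 CPM in MOZ, against 139409, 182793, 70445 and 96142 CPM in SEK, with overlapping strains (0.05 on the log2 scale, SE 0.26, edgeR adjusted p 0.894). ASK67_gr01 was below SEK in every MOZ library, at 210 ± 64.9 CPM in MOZ and 420 ± 153 CPM in SEK (SD, n = 4 each), with a log2 fold change of -0.997 (edgeR adjusted p 0.117). In a fit of the 8 strain libraries alone it was called, with an adjusted p of 0.014. The 22 transfer RNA genes gathered 221 counts over the 8 libraries, and 2 of them passed the filter, neither called. COX1 averaged 4079 CPM in MOZ and 15988 CPM in SEK, and 55459 CPM (ASN), 24904 (CHW) and 65792 (TOL) in the field, so that MOZ held the lowest mean of the 5 groups. Apart from CHW replicates 3 and 4 the field libraries were in another sequencing run, and the part of the run in this order was not tested.

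**Figure D4:**
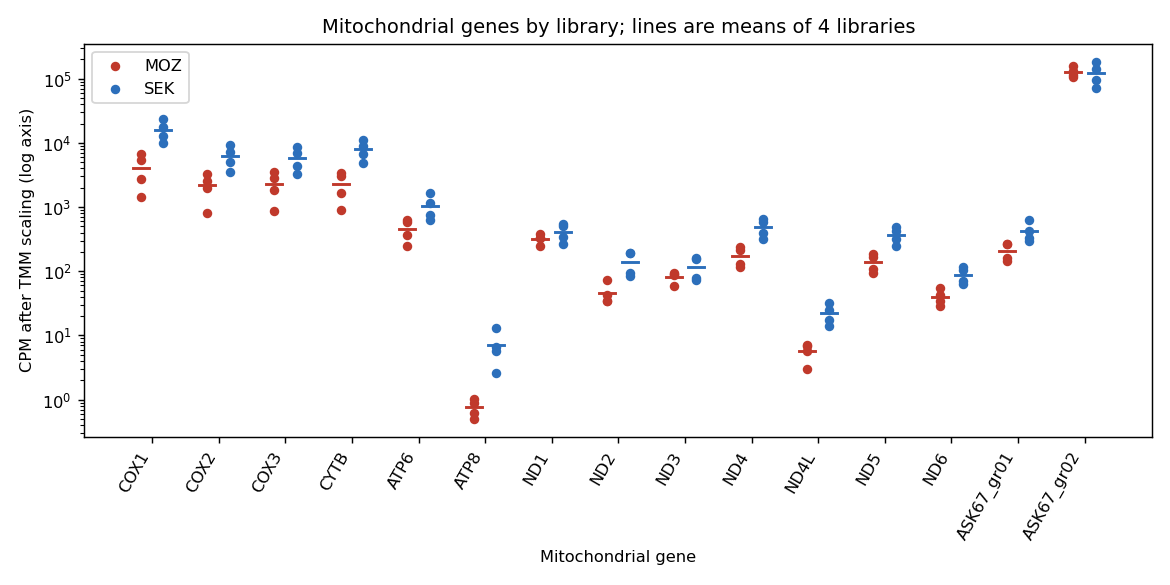
CPM after TMM scaling on a log axis for the 13 mitochondrial protein-coding genes and the 2 ribosomal RNAs, 1 point per library and a line at the mean of 4, MOZ in red left of SEK in blue. In 10 of the 13 protein-coding genes every MOZ point lies below every SEK point, while the points of ASK67_gr02 overlap.

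Without SEK replicate 2, 1500 of 11168 genes (13.4%) were called, 753 higher and 747 lower (6.69%) in MOZ. Of these, 1281 were called with all libraries as well, each in the same direction, while 219 were called only without it and 119 only with it. The median absolute shift of the log2 fold change among the 1281 was 0.08. Without any other single library the number called ran from 1287 (without SEK replicate 4) to 1431 (without MOZ replicate 2).

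Fewer mitochondrial genes were called without SEK replicate 2, the SEK library with the highest level in 12 of the 13. Without it 7 of the 13 protein-coding genes were called lower, with a median log2 fold change of -1.28. COX1 (-1.74), CYTB (-1.59), COX2 (-1.28), ND4L, ND4, ND5 and ATP8 passed. COX3, at -1.10 with an adjusted p of 0.0595, and ATP6, at -0.87 with 0.144, did not pass the edgeR test, and ND6, at -0.97, fell short of 2-fold.

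Among the called genes whose fitted fold change shifted the most, AARA014350 had 1.30, 1.04, 1.10 and 3.20 CPM in MOZ, against 0, 0.199, 0 and 0 CPM in SEK. With all libraries its pooled counts, 113 in MOZ and 3 in SEK, gave a ratio of 39.6 (95% exact interval for counting error 13.2 to 195). Without SEK replicate 2 it had no count in SEK and was at least 31.5-fold higher in MOZ against a floor of 3 counts. AARA008580 had 24.7, 17.1, 18.3 and 17.4 CPM in MOZ, against 51.2, 200, 45.1 and 57.4 CPM in SEK. Its log2 fold change was -1.40 without SEK replicate 2, against -2.19 with it. AARA004951 was no longer called without that library, at -0.86 with an edgeR adjusted p of 0.194, against -1.64 with 0.0254. It was also not called without MOZ replicate 1, 2 or 3 (adjusted p 0.0696, 0.0551 and 0.0644), in the 10 libraries of the second run (0.0552) or with limma and voom (0.066). AARA001091 and AARA014186 moved away from 0, to 4.06 and 2.79 against 3.18 and 2.12 with all libraries.

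A set of 81 genes was near 0 in SEK replicate 2, at 2 counts or fewer, while SEK replicates 1, 3 and 4 had at least 10 counts of each. Together they took 6.51, 7.78, 4.86 and 7.34 CPM of the library total in MOZ, against 2534, 2.92, 492 and 187 in SEK replicates 1 to 4. In this set SEK replicate 2 was low, like the MOZ libraries. Its contrast with the other SEK libraries was fixed by the choice of the set. Among the field libraries TOL replicate 1 stood out, with 237 CPM, against 3.57 to 32.4 in the other 11. The set was thus high in SEK replicates 1, 3 and 4 and TOL replicate 1, and low in all other libraries. Of the 81 genes 77 were tested, and 64 were called lower in MOZ with all libraries, where 6.29% of all genes tested were. Without SEK replicate 2, 76 were called lower, where 6.69% of all genes tested were. With all 20 libraries most of the set passed the filter on low counts only through the field libraries. TOL replicate 1 had at least 10 counts in 77 of the 81. When the 8 strain libraries were fitted alone, 2 of the 81 passed the filter on low counts. In the 10 libraries of the second run CHW held only 2, and the filter asks for as many libraries as the smallest group. SEK replicates 1, 3 and 4 then sufficed, so that all 81 passed was fixed by the choice of the set. There 74 were called lower. The 64 make up 9.24% of the 693 genes called lower. The set was chosen by its values in SEK, so these counts are a description. What sets SEK replicate 2 apart from its group, or TOL replicate 1 from its own, was not tested.

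The 10 highest ones, among them AARA000242, AARA014036, AARA014037, AARA000241 and AARA000246, had a median CPM ratio of SEK replicate 1 to SEK replicate 3 of 8.98 and of SEK replicate 3 to SEK replicate 4 of 7.75. The other 71 had median ratios of 2.02 and 1.15. The 10 were ranked by mean level in SEK replicates 1, 3 and 4, in which SEK replicate 1 weighs most, so a higher ratio to SEK replicate 1 among them is partly fixed by the choice. AARA000242 had 1, 1, 3 and 6 counts in MOZ, against 10847, 0, 1481 and 255 in SEK. AARA000241 had 0, 0, 0 and 1 counts in MOZ, against 4381, 0, 373 and 40 in SEK. All 5 named genes were called lower by edgeR and none by limma with voom, with adjusted p from 0.21 to 0.383.

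**Figure D5:**
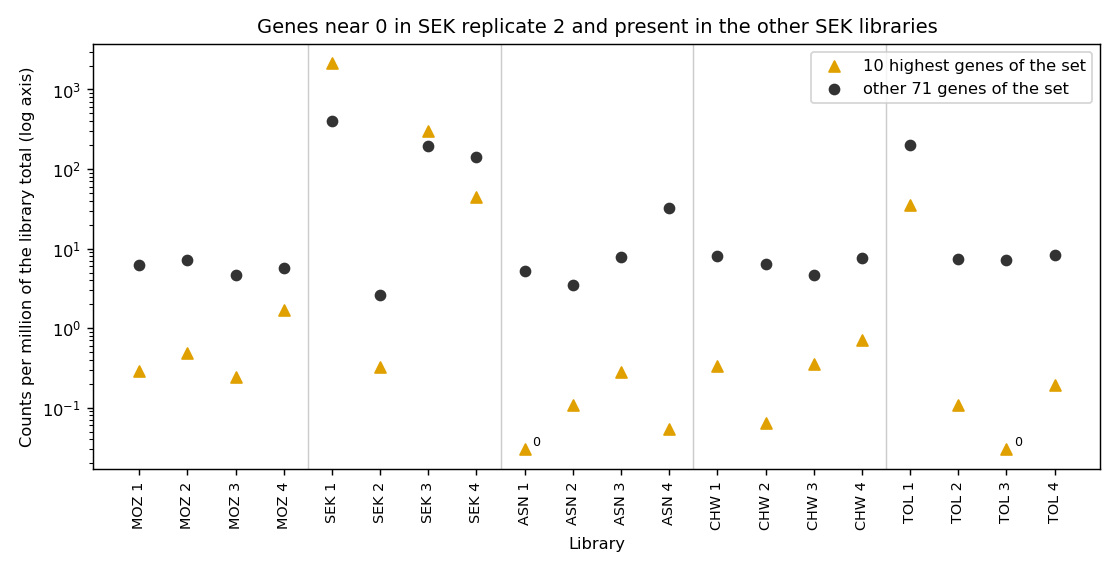
CPM of the library total (y axis, log scale) in each library for the 10 highest genes of the set near 0 in SEK replicate 2 (triangles) and the other 71 (circles), with MOZ and SEK first and the field populations after them. A sum of 0 is drawn at the foot of the axis and marked 0. SEK replicates 1, 3 and 4 and TOL replicate 1 lie above the other libraries, and SEK replicate 2 lies with MOZ.

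With the 81 genes taken out of the table, 1340 genes were called, 709 higher and 631 lower in MOZ. With SEK replicate 2 as the only SEK library and the spread taken from the other groups, 712 genes were called, 290 higher and 422 lower, of which 584 were among the 1400. In that fit 1 library stands for SEK and is assumed to vary like the other groups. Both alternatives were chosen after seeing the data.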

How the data were processed

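The authors deposited 1 table of whole-number counts per gene for 20 libraries, without normalization, judged from the values. Reads were paired, 125 bp and strand-specific, per the labels' protocols. The submitters' processing notes name FastQC 0.11.4, HISAT2, Cufflinks, SAMtools 1.5 and HTSeq 0.9.0 without saying what each did. No source used here gives the build, the annotation, the strand setting or the treatment of shared reads, so overlapping and near-identical genes are uncertain. All 20 columns were matched by name.

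The deposited counts were tested with edgeR 4.0.16 in R 4.3.3. A quasi-likelihood model with 5 groups was fitted to all 20 libraries after filterByExpr and TMM scaling. Standard errors were taken as the absolute log2 fold change over the root of F. CPM is after TMM scaling. Alternatives included DESeq2 1.42.0 and limma 3.58.1. Depth was 12205530 counts or more per library, and intervals and floors cover counting error only. In counts simulated for MOZ vs SEK, with 100 genes changed 4-fold and 100 changed 2-fold among 11081 tested, 100 of the 4-fold and 57 of the 2-fold genes were called, beside 1 unchanged gene. At 2-fold, 89 of the 100 had an adjusted p under 0.05. The changes were planted only in nuclear genes with a mean of 1 CPM or more, and the spread was that of the fit itself. Changes in weaker genes, and a library apart from its group like SEK replicate 2, were not simulated.

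Named genes were the 10 largest changes each way without overlap and at 5 CPM or more, the 5 most abundant called genes each way, the 5 highest on and off genes each way, the 13 mitochondrial protein-coding and 2 ribosomal RNA genes, the 5 highest of the set near 0 in SEK replicate 2, and the 5 called genes that moved the most without that library. AARA002505, AARA015839, AARA005874, AARA015692 and AARA012028 were named after their values were seen. The members, lists and rules were chosen with earlier results of these data known.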

Additional observations from a re-analysis of the deposited data

Results flagged for a closer look

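The values of the 59 named genes and 7 shares were examined for a library far from the other 3 of its strain, leaving out groups with fewer than 10 counts in every library. In 104 groups of 4 libraries, 3 had a gap above Dixon's 95% critical share of the group's range, where chance marks about 1 in 20. AARA008580 in SEK had a gap of 0.838, with a log2 CPM of 7.64 in SEK replicate 2 against 5.50 to 5.85 in the others. AARA001805 in SEK had a gap of 0.837, with 3.71 in SEK replicate 2 against 2.64 to 2.81. AARA014479 in SEK had a gap of 0.867, with 1.69 in SEK replicate 1 against 1.20 to 1.27. AARA008580 was named because it moves without SEK replicate 2, so its mark adds nothing to that.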

How the results depend on the processing

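The number of genes called lay within 1.5 times the reported 1400 under all scalings, the fits of 8 or 10 libraries, DESeq2 (1396), limma with voom (1364), the test against a 1.5-fold change (1085) and no filter on low counts (1646). No scaling moved the share of higher calls by over 10 percentage points or the median over all genes by over 0.1 on the log2 scale. Exceptions were the stricter filter, with 924 called and 433 higher, an adjusted p alone, with 4567 called, 2360 higher and 2207 lower, and SEK replicate 2 as the only SEK library, with 712, 290 and 422. Leaving out 1 library gave 1287 to 1500 called, 613 to 759 higher, 651 to 747 lower and 7 to 10 mitochondrial protein-coding genes. The last were 6 against a fold of 1.5.

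Replicate numbers did not pair the strains, as deviations of same-numbered libraries correlated at -0.0815 to -0.00439 and no MOZ library correlated best with its own number. With the replicate block, in the 8 libraries, 1229 genes were called, against 1243 without it, and 9 of the 13 mitochondrial genes, with COX3 and ATP6 not called (adjusted p 0.0543 and 0.0546).

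Genes on in MOZ and off in SEK numbered 4 at 20 counts, 2 with off at 0 counts and 4 with thresholds on CPM, and genes on in SEK and off in MOZ 2 with off at 0 and 5 on CPM. Leaving out 1 library gave 7 to 9 and 11 to 72, and by the rule it can only keep or raise these numbers. The set near 0 in SEK replicate 2 held 38 genes at 20 counts and 50 with absence at 0.

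Taking out ASK67_gr02, which holds nearly all rRNA counts, left mainly the protein-coding genes among all mitochondrial counts. The difference was then -3.33 percentage points (exact p 0.0286), which largely restates the protein-coding share. For rRNA it left ASK67_gr01 alone, at -0.0255 points (exact p 0.0286). Neither value is a check of the full share. The full rRNA share reversed without MOZ replicate 2 (-0.0246) and without SEK replicate 3. Leaving out 1 library gave differences, MOZ minus SEK, of -3.38 to 0.383 points for all mitochondrial counts, -3.23 to -2.41 for protein-coding, -0.148 to 2.79 for rRNA and -8.52e-05 to -5.58e-05 for tRNA counts. For complexes I, III, IV and V they were 1.98 to 4.42, -2.27 to -1.50, -4.39 to -1.20 and 1.06 to 1.74 points. The protein-coding share was above 0.05 without MOZ replicate 2 or 4 (exact p 0.0571), and complexes I and V without any 1 SEK library (0.0857 and 0.0571). In these shares the strains do not overlap with all libraries, and leaving out 1 cannot make them overlap. The tRNA share without MOZ replicate 2, complex III without MOZ replicate 3 and complex IV without MOZ replicate 1 reached an exact p of 0.0286.

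The 59 named genes kept both their direction and their side of the threshold in 1091 of 1148 values. The log2 fold change of ASK67_gr02, which was not called, ran from -0.15 to 0.31 without 1 library and was -0.55 with SEK replicate 2 alone. There AARA000242, AARA014036, AARA014037 and AARA000241 reversed to 4.44, 3.39, 0.88 and 1.53, none called. With 8 libraries alone, 9 of the named genes were removed by the filter on low counts and have no value there. Depth limits the genes at 0: no count over the 4 libraries of a strain allows up to 3 counts.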
